A study of Mus musculus with 16 samples.

Results

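Loss of the ciliary gene Ift88 was examined in the heads of embryos from mice that had been kept for 3 generations on a folic acid enriched diet. The comparison set the 4 libraries labelled as mutants on 10 ppm folic acid against the 4 labelled as wild type on the same diet, so 8 of the 16 libraries of the series enter it directly. The mutants are labelled as homozygous for a null Ift88 allele, with no detail of how it was made. Of the mutant embryos, 2 are labelled female and 2 male, and of the wild type embryos 1 female and 3 male. Each library came from the head of an F3 embryo at embryonic day 8.5, taken from the first branchial arch up to slightly over the otic vesicle. The other 8 libraries, 4 mutant and 4 wild type, came from mice on a diet called moderate, with 2 ppm folic acid. They served here to estimate the spread between libraries and as the closest comparison. All 24421 gene symbols of the deposited tables were considered, and the 14514 with enough counts were tested. Litters are not named, so the p-values rest on how far single libraries vary.

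Ift88 is a core subunit of the intraflagellar transport B complex, the particle that carries cargo from the cell body into the cilium. Vertebrate cells need a primary cilium to turn Gli transcription factors into activators when Hedgehog ligand binds, and embryos without Ift88 fail to pattern the ventral neural tube. At this stage the cranial neural folds are closing, the floor plate is forming below them, and head mesenchyme and neural crest lie on either side. Head tissue at this age lives largely on glycolysis before its circulation is established. Folic acid carries the single carbon units that growing tissue uses to make nucleotides and methyl groups.

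The mutant libraries held 19249433 to 44267434 counts on genes and the wild type libraries 20760316 to 33858563. The share of counts in the 10 largest genes averaged 5.64 ± 0.246% (SD, n = 4) in mutants and 4.71 ± 0.197% (SD, n = 4) in wild type without overlap (exact permutation test, 2-sided p = 0.0286, the smallest that 4 against 4 allows, and 0.286 after Benjamini-Hochberg adjustment over 10 library measures). On the 500 most variable genes, principal component 1 (50.5% of variance) placed the mutants between -22.2 and -12.9 and the wild type libraries between 14.9 and 20.5. Component 2 (20.1%) set mutant 3 at 22.1 and mutant 4 at -18.5. Its sign followed labelled sex. The libraries labelled female, mutants 1 and 3 and wild type 2, lay at 8.38, 22.1 and 8.56. Those labelled male lay between -18.5 and -0.414, with wild type 4 at -12.4. What drove component 2 was not tested. Mutant 3 stood apart by Prl8a2, a prolactin family hormone of the decidua, at 189 CPM (counts scaled to a common library size) against 0.0610 to 3.46 CPM in the other 7 libraries. Mutant 4 stood apart by Afp, a visceral endoderm marker, at 57.7 CPM against at most 5.51 CPM elsewhere. Counts of lists below are given without these or other libraries where that moves them by more than 1.5 times, except counts of 3 or fewer, many of which moved by 1 or 2 genes with a single library. Markers of neural tissue, head mesenchyme, surface ectoderm and endothelium were present in all 8 libraries, and the heart markers Nkx2-5, Tnnt2, Myh6 and Myl7 and the leukocyte markers Ptprc, Tyrobp and Csf1r reached at most 1.49 CPM. In the 8 enriched diet libraries the labelled sex matched the sex-linked counts, while 3 of the 8 moderate diet libraries did not match.

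Ift88 itself (chromosome 14, 57424062 to 57517936, mm10) read 2.99, 8.61, 2.86 and 5.25 CPM in mutants 1 to 4 and 18.98, 20.7, 17.9 and 20.8 CPM in wild type 1 to 4. Every mutant was below every wild type library, and mutant 2 kept the most. The fall was -1.97 on the log2 scale (SE 0.34, adjusted p = 0.000822, edgeR). A count per gene does not show where in the gene the remaining reads fell.

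Many of the expressed genes moved, most of them by little. In the edgeR fit 4524 of 14514 genes passed a Benjamini-Hochberg adjusted p of 0.05, or 31.2% of those tested. The mutants were higher for 2091 genes (14.4%) and lower for 2433 (16.8%). The median rise among the called genes was 1.46-fold and the median fall 1.32-fold, and 3018 calls, or 66.7%, were under 1.5-fold. Only 401 rises and 199 falls exceeded 2-fold. In bulk tissue, fewer cells of a type and less RNA per cell cannot be told apart. The count of falls rested on single libraries: it was 1463 without mutant 2, 1593 without wild type 1 and 1403 without wild type 3, while the count of rises stayed between 1620 and 2379 for any library left out.

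The small shifts filled the range between 1.1-fold and 1.5-fold. No gene changed by less than 1.1-fold was called among 4533. Between 1.1-fold and 1.25-fold, 369 genes rose and 656 fell of 4554, or 22.5%. Between 1.25-fold and 1.5-fold, 761 rose and 1232 fell of 3263, or 61.1%, and this range alone held 44.1% of all calls. Above 1.5-fold the balance turned, with 560 rises against 346 falls up to 2-fold, 327 against 160 up to 4-fold and 74 against 39 beyond. So in this fit falls outnumbered rises among the small shifts and rises outnumbered falls among the large ones. The excess of falls over all calls depended on the processing. There were 2246 rises and 2216 falls with median-of-ratios scaling, and 2045 and 1826 without mutant 1. Plain library totals gave 2117 and 2424, and limma-voom 2065 and 2468. The balance by size class was counted in the main fit only. The median standard error of the called genes was 0.079 on the log2 scale in the smallest of these classes and 0.472 in the largest.

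**Figure D1:**
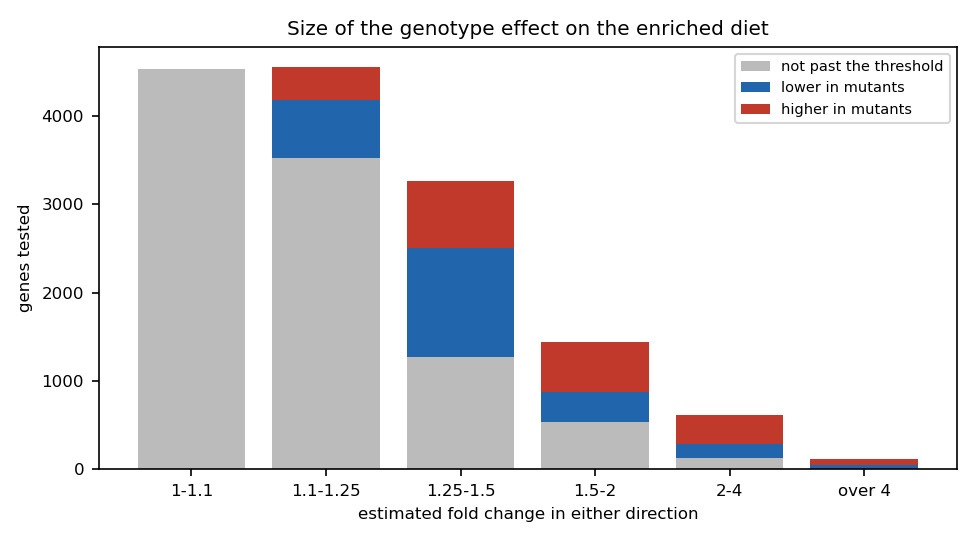
Bars count the genes tested in each class of estimated fold change in either direction, split into genes not past the threshold (grey), lower in mutants (blue) and higher in mutants (red). The blue part exceeds the red in the classes from 1.1 to 1.5 (656 against 369, and 1232 against 761) and is smaller than the red above 1.5.

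Whether a small shift could be called depended on the level of the gene. Genes were split by level into 4 classes of equal size. In the lowest class (0.126 to 4.65 CPM) 20.6% were called, the median called change was 2.04-fold and the smallest was 1.25-fold. In the highest class (71.7 to 11572 CPM) 36.3% were called, at a median of 1.27-fold and down to 1.11-fold. The lowest class held 445 rises and 301 falls, and the highest 467 rises and 851 falls. Summed over genes, the rises took up 154903 CPM in mutants and 110267 CPM in wild type, and the falls 196515 CPM against 249046 CPM. The median standard error was 0.297 on the log2 scale in the lowest class and 0.0854 in the highest, so a shift of the same size was harder to call at low levels.

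A test against a minimum change drew a narrower set. With edgeR's glmTreat, 1293 genes (8.91%) changed by more than 1.2-fold, 735 up (5.06%) and 558 down (3.84%). By more than 1.5-fold it was 251 genes (1.73%), 171 up (1.18%) and 80 down (0.551%). The 1.2-fold count was 780 without mutant 2 and 740 without wild type 3, and the 1.5-fold count 159 without wild type 3. In 3435 genes (23.7%) the 4 mutants and 4 wild type libraries did not overlap, of which 3016 were called. A further 1508 calls were made on genes whose groups overlapped.

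The largest falls were in genes of the ventral midline. Nkx2-9, a homeobox factor of the ventral neural tube (chromosome 12, 56611389 to 56613284), read 0.0679, 0, 0.106 and 0.0339 CPM in the mutants and 21.3, 17.4, 16.3 and 16.8 CPM in wild type. It was nearly absent from every mutant, and its fitted change was -8.30 (SE 0.32, adjusted p = 7.65e-11). Foxa2, the forkhead factor that specifies floor plate, read 0.589, 0.346, 0.318 and 0.474 CPM against 18.7, 14.6, 16.8 and 17.2 CPM. Shh, the Hedgehog ligand made by that floor plate, read 1.34, 1.30, 0.742 and 1.02 CPM against 33.3, 30.5, 35.4 and 36.5 CPM. All 4 mutants lay far below all wild type libraries for both genes, by -5.19 (SE 0.20) and -4.89 (SE 0.20). Nkx2-2, another ventral homeobox factor, fell by 4.03 on the log2 scale (SE 0.30), and Ferd3l, a floor plate bHLH factor, by 3.35 (SE 0.31).

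Of the 22 floor plate and ventral neural tube genes listed, 13 fell and 1 rose. Their median was -0.58 on the log2 scale against -0.01 for all genes tested. The ventral progenitor factor Nkx6-1 kept more of its level than the midline genes, with 6.77, 4.59, 4.40 and 3.96 CPM against 12.3, 13.8, 14.1 and 16.5 CPM (-1.55, SE 0.16). Among 20 Hedgehog-induced genes, 9 fell and 2 rose. Gli1, the transcription factor most used as a readout of the pathway, read 8.83, 8.05, 8.43 and 23.0 CPM against 26.6, 26.6, 27.8 and 39.6 CPM. Mutant 4 kept far more Gli1 than the other mutants but stayed below all wild type libraries, and the fall was -1.25 (SE 0.24, adjusted p = 0.00178). Hsd11b2, which inactivates glucocorticoids, went from 32.3 to 39.3 CPM in wild type to 8.27 to 10.3 CPM in mutants (-1.92, SE 0.15). The Gli site GACCACCCA stood in 0 of the 10 Hedgehog-induced genes with a promoter sequence (RefSeq, both strands) and in 0.193% of tested genes.

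The Hedgehog pathway's own components moved little and in both directions, 5 up and 5 down of 28, or 35.7% called against 31.2% of all genes. Smo, the transducer at the cilium, read 312, 295, 324 and 292 CPM against 348, 401, 403 and 357 CPM, without overlap (-0.32, SE 0.07). Sufu, which holds Gli factors back, fell by 0.32 on the log2 scale (SE 0.06), and the protein kinase A subunit Prkaca by 0.39 (SE 0.08). Gli2, the main activator, was higher at 105, 108, 97.8 and 135 CPM against 76.6, 92.4, 78.6 and 92.6 CPM (0.41, SE 0.10). Fuz, a planar polarity effector needed for cilia, rose by 0.83 (SE 0.13). The count of rising components was 3 without mutant 2, wild type 1 or wild type 3.

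**Figure D2:**
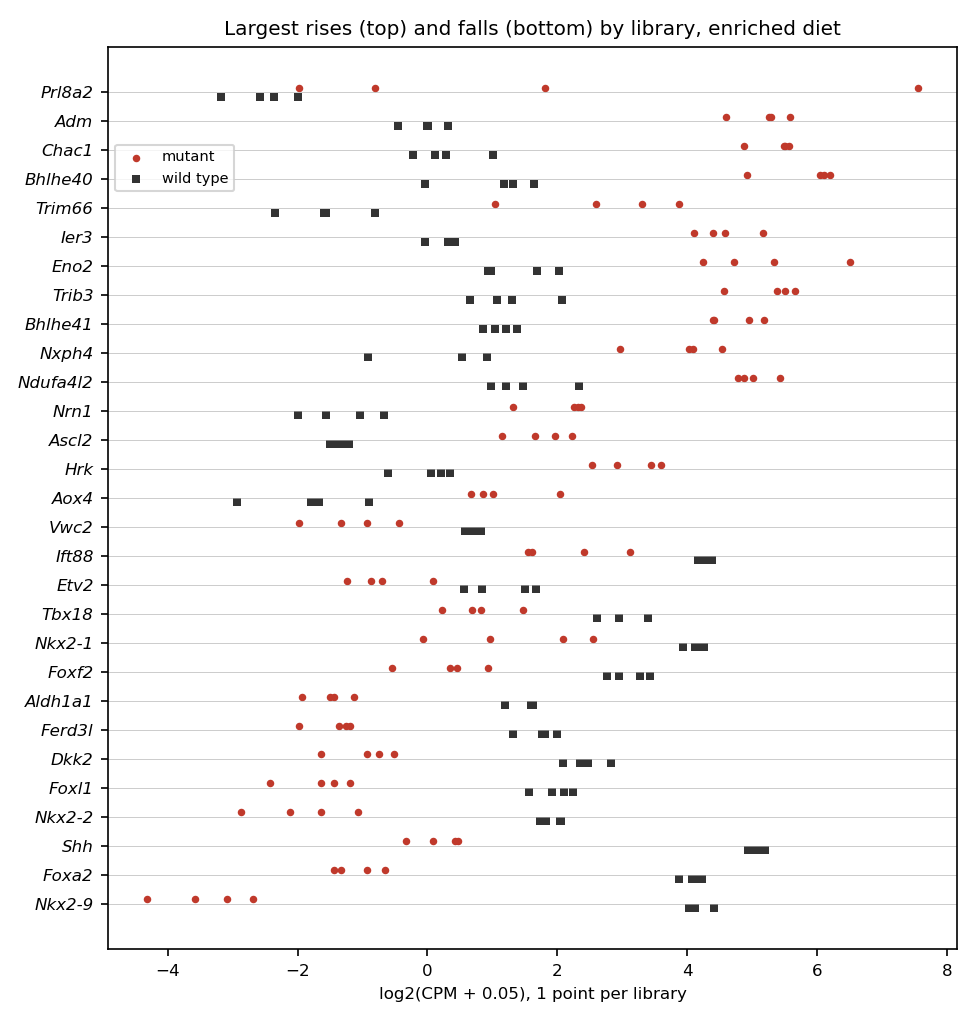
Each row is a gene among the largest rises (top, 15 drawn) and falls (bottom, 14 drawn) with a mean of at least 1 CPM and no overlap, with log2(CPM + 0.05) on the horizontal axis, red circles for the 4 mutants and black squares for the 4 wild type libraries. Nkx2-9 reaches 0 counts in a mutant library, and Prl8a2 spreads over most of the axis, with mutant 3 far to the right.

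Genes of head mesenchyme were also among the largest falls. The forkhead factors Foxl1 and Foxf2, which Hedgehog signals induce in mesenchyme, fell by 3.84 (SE 0.31) and 2.72 (SE 0.24) on the log2 scale. Foxf2 read 1.22, 1.86, 0.636 and 1.32 CPM in mutants against 7.72, 6.71, 9.58 and 10.7 CPM in wild type, every mutant below every wild type library. Foxc2, another forkhead factor of head mesenchyme, read 7.43, 9.26, 8.80 and 8.64 CPM against 20.3, 18.2, 19.02 and 20.8 CPM (-1.19, SE 0.12). The T-box factors Tbx18 and Tbx1 fell by 2.13 (SE 0.29) and 1.04 (SE 0.24). Yet of 35 genes of cranial mesoderm and arch mesenchyme 9 fell (5 without mutant 2 or wild type 1) and 3 rose, at a median of -0.01. These were 34.3% of the list, near the 31.2% called of all genes. The mesenchyme markers Twist1 (85.1 to 95.3 against 81.8 to 89.7 CPM), Prrx1 (73.3 to 92.2 against 69.3 to 83.2 CPM) and Prrx2 (33.4 to 49.1 against 33.2 to 39.3 CPM) overlapped between the groups. Phox2a, a homeobox factor of visceral motor neurons, fell by 1.25 (SE 0.28). Dkk2, a secreted modulator of Wnt signals, fell by 3.52 (SE 0.56), and Aldh1a1, a retinoic acid making enzyme, by 3.17 (SE 0.28).

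Many of the largest rises were in genes known to be induced by low oxygen or by shortage of amino acids. The largest fitted rise, of the decidual gene Prl8a2 at 7.04, rested on mutant 3. Adm, which encodes the vasodilator peptide adrenomedullin (chromosome 7, 110627661 to 110629820), read 48.0, 39.2, 24.2 and 38.1 CPM in mutants and 0.959, 0.683, 1.198 and 0.946 CPM in wild type. Every mutant was far above every wild type library, and the rise was 5.37 (SE 0.50, adjusted p = 1.25e-05). Ndufa4l2, a mitochondrial protein made under hypoxia, read 27.3, 42.9, 32.3 and 29.2 CPM against 2.73, 2.25, 1.93 and 5.00 CPM (3.56, SE 0.30, adjusted p = 4e-06). Bhlhe40 and Bhlhe41, paired transcriptional repressors, rose by 4.91 (SE 0.56) and 3.72 (SE 0.44). Stc1 and Stc2, secreted stanniocalcins, rose by 3.19 (SE 0.36) and 3.08 (SE 0.35). Ddit4, an inhibitor of the growth kinase mTORC1, reached 568, 716, 374 and 477 CPM against 95.6, 39.6, 55.3 and 78.5 CPM (3.09, SE 0.38). Mutant 3 was the lowest of the 4 mutants for Adm, Bhlhe40 and Ddit4 and still above all wild type libraries.

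Of 30 hypoxia-induced genes listed, 29 rose and no gene fell, with a median of 1.83 on the log2 scale. The list was written with earlier results of these libraries known, so its count is no independent evidence. It lay between 27 and 29 over the 21 alternatives, left-out libraries included. Hif1a, the oxygen-sensitive factor that drives such genes through its protein, did not rise with them. It read 181, 165, 207 and 165 CPM in mutants against 226, 279, 226 and 220 CPM in wild type, a fall of 0.46 on the log2 scale (SE 0.10, adjusted p = 0.00358). Egln1 and Egln3, prolyl hydroxylases that mark HIF for breakdown and are themselves induced by it, rose by 1.60 (SE 0.23) and 1.89 (SE 0.25), while their relative Egln2 fell by 0.47 (SE 0.08).

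Promoters of 2 of these genes are shown because they hold the short core that HIF binds. The sequences are RefSeq's, on the GRCm38.p6 assembly (mm10), from 250 bases before to 50 bases after the first listed start, and capitals mark ACGTG or GCGTG on either strand (CACGT or CACGC on the strand shown). Adm lies on the plus strand at chr7:110627407-110627706, with its matches beginning 90 and 54 bases before the start. Ddit4 lies on the minus strand at chr10:59951721-59952020, with matches beginning at -187 and -115.
Adm: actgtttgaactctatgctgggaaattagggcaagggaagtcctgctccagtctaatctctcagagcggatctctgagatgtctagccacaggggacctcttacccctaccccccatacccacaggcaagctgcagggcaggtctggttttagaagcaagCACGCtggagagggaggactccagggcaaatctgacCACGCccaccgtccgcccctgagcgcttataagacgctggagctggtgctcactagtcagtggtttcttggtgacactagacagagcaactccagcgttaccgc
Ddit4: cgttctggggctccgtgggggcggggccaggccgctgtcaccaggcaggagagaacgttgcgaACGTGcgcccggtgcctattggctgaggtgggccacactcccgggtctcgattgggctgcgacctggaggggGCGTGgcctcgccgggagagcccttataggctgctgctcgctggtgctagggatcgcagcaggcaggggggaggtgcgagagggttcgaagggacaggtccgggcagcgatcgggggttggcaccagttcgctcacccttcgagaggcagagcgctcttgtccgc

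The core is short and common. At least 1 of its forms stood in 43.8% of 27025 promoters and in 62.9% of the 10893 tested genes with a promoter sequence. Of the rising genes 66.8% held it, and of the falling genes 63.6%. In the hypoxia list it was 19 of 23, or 82.6%. The form ACGTG, which is also the end of the E-box CACGTG, stood in 25.5% of tested genes and in 37.8% of the 127 that rose by more than 1.5-fold in the minimum-change test. The form GCGTG stood in 51.4% of tested genes and in 47.2% of those 127, and either form in 62.9% and 64.6%.

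Glycolysis and glycogen genes rose with them, by smaller amounts at far higher levels. Of 25 genes for glycolysis, glucose uptake and lactate, 21 rose and 1 fell (14.4% and 16.8% of all genes), at a median of 0.66. Pfkp, a phosphofructokinase, read 57.8, 62.7, 45.9 and 97.0 CPM in mutants and 12.0, 11.1, 9.29 and 20.8 CPM in wild type (2.39, SE 0.25). Hk2, the hexokinase that traps glucose in the cell, read 523, 559, 444 and 483 CPM against 259, 219, 202 and 196 CPM (1.2, SE 0.17). Eno2, an enolase, rose by 4.13 (SE 0.62), with mutant 4 the highest at 90.7 CPM. At the high end Pkm, the pyruvate kinase, read 5216, 4953, 4923 and 4232 CPM against 4174, 3656, 3714 and 3436 CPM, a rise of 0.35 (SE 0.08). Ldha, which makes lactate, was higher by 0.33 (SE 0.12, adjusted p = 0.0425), with overlap between the groups, and missed the threshold without any of mutants 1, 2 and 3 or wild type 2, 3 and 4. Of 16 glycogen genes 9 rose and 1 fell. Ppp1r3c, which targets a phosphatase to glycogen, rose by 3.15 (SE 0.43) and Gys1, glycogen synthase, by 1.18 (SE 0.17).

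Part of the histone demethylases and collagen-modifying enzymes, many of which use oxygen, were higher as well. Of 20 Jumonji histone demethylases 11 rose and no gene fell, at a median of 0.29. With the trend on length and GC removed, 8 rose and 1 fell, at a median of 0.15. Kdm3a read 267, 265, 214 and 319 CPM in mutants and 139, 117, 104 and 140 CPM in wild type, without overlap (1.12, SE 0.14). Kdm7a rose by 1.39 (SE 0.18) and Kdm4c by 0.88 (SE 0.12). Of 18 enzymes that hydroxylate or cross-link collagen 7 rose and no gene fell, or 38.9% called against 31.2% of all genes. P4ha1, a prolyl hydroxylase, read 357, 353, 278 and 267 CPM against 153, 124, 129 and 122 CPM (1.27, SE 0.16), and the lysyl oxidase relative Loxl2 rose by 1.45 (SE 0.16). Collagen chains moved less, with 5 of 21 higher (8 without mutant 3), or 23.8% called, below the share of all genes. Among the 5 were Col4a6 (0.59, SE 0.10) and Col4a5 (0.41, SE 0.09), chains of basement membrane.

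Genes of the amino acid response formed the other block of large rises. ATF4 is a transcription factor whose own translation increases when amino acids run short, and its targets import amino acids, make them and load them on tRNA. Chac1, which breaks down glutathione (chromosome 2, 119351229 to 119354381), read 45.0, 47.3, 29.3 and 45.6 CPM in mutants and 1.97, 0.804, 1.17 and 1.04 CPM in wild type. Every mutant was above every wild type library, by 5.18 (SE 0.76, adjusted p = 0.000303). Trib3, a pseudokinase that restrains ATF4, read 41.7, 50.3, 23.8 and 45.5 CPM against 4.17, 2.05, 1.52 and 2.41 CPM (4.10, SE 0.60). Asns, asparagine synthetase, read 300, 302, 233 and 238 CPM against 102, 79.2, 92.1 and 72.2 CPM (1.65, SE 0.20). Of 33 such genes 30 rose and no gene fell, at a median of 1.54, and the count lay between 28 and 32 over the 21 alternatives. As for the hypoxia genes, the list was written with earlier results known.

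Promoters of Chac1 and Trib3 are shown for the composite element that ATF4 reads with C/EBP partners. Capitals mark TGATGNAA on either strand. Chac1 is on the plus strand at chr2:119350992-119351291, with the match beginning at -193. Trib3 is on the minus strand at chr2:152344011-152344310, with the match beginning 14 bases after the start.
Chac1: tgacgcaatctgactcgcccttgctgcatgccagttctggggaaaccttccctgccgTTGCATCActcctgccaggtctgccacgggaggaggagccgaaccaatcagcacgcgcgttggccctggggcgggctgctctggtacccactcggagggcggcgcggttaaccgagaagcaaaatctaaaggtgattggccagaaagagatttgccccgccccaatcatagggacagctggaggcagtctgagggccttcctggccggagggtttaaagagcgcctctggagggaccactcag
Trib3: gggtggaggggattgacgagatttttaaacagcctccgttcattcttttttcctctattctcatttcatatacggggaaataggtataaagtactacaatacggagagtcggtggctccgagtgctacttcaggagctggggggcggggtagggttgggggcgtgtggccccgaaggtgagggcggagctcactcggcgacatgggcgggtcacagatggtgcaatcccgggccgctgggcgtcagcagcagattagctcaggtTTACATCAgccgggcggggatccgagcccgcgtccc

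This element was rarer than the HIF core. It stood in 4.06% of all promoters, 2.12% of tested genes, 3.27% of rising genes and 1.96% of falling genes. Among the 127 matched genes that rose by more than 1.5-fold 12 held it (9.45%), and in the amino acid list 9 of 29 (31.0%). That list was written from known targets of the factor, so its share is a description.

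Some genes for the uptake and use of amino acids rose as well. Of 24 amino acid transporters 7 rose (14.4% of all genes did) and no gene fell. That was 29.2% called against 31.2% of all genes, at a median of 0.16, with 9 estimates below 0. Slc7a3, a carrier of cationic amino acids, read 48.2, 54.3, 32.8 and 49.1 CPM in mutants and 8.10, 5.15, 5.20 and 4.00 CPM in wild type (3.10, SE 0.36). Slc7a5, which imports leucine, read 363, 460, 287 and 310 CPM against 107, 102, 121 and 94.4 CPM (1.75, SE 0.27). Of 22 cytosolic aminoacyl-tRNA synthetases 9 rose and 3 fell (1 without mutant 4, wild type 1 or wild type 3, and 5 without wild type 4). Cars rose by 0.70 (SE 0.09), Sars by 0.69 (SE 0.10) and Lars by 0.53 (SE 0.07), each without overlap. Of the 17 mitochondrial synthetases 2 rose and 1 fell, or 17.6% called. Among genes that control mTORC1, Sesn2 rose by 1.96 (SE 0.29) and Eif4ebp1, which holds back cap-dependent translation, by 1.05 (SE 0.16), while Akt1s1 fell by 0.45 (SE 0.09).

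Chaperones of the endoplasmic reticulum went the other way. Of 25 listed, 12 fell and 3 rose, at a median of -0.32. Hyou1, a large chaperone of the lumen, read 354, 288, 377 and 319 CPM in mutants and 469, 520, 496 and 419 CPM in wild type (-0.55, SE 0.08). Creld2, a secreted disulfide isomerase partner, read 50.5, 38.9, 50.01 and 44.1 CPM against 70.3, 70.2, 82.3 and 64.2 CPM (-0.67, SE 0.10). Every mutant was below every wild type library for both. Dnajb11 fell by 0.59 (SE 0.10) and Sdf2l1 by 0.60 (SE 0.13). The 3 that rose were Herpud1, Sil1 and Atf6, named after their values were seen, and Herpud1 is also on the ATF4 list. Atf6, a transcription factor, and Herpud1, a protein of the degradation pathway, are not chaperones themselves. The promoter of Creld2 is shown for the endoplasmic reticulum stress element (CCAAT and CCACG with 9 bases between them), in capitals on the reverse strand, beginning at -126 (plus strand gene, chr15:88819396-88819695).
Creld2: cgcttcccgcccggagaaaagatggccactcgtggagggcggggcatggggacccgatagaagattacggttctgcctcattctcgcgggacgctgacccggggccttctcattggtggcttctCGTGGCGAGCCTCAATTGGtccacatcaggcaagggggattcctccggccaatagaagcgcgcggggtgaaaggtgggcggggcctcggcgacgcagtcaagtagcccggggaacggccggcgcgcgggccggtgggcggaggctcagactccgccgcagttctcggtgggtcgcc

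Of the 21 genes of the chaperone list with a promoter sequence 8 held this element (38.1%), against 0.147% of tested genes and 0.130% of all promoters. The list was written from general knowledge of such genes, so its share is a description.

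Cholesterol synthesis fell as a block, by small amounts. Of 26 genes for cholesterol synthesis and its SREBP regulators, 20 fell and no gene rose, and all 26 estimates were below 0, at a median of -0.45. Nsdhl, which removes methyl groups from sterols, read 43.1, 33.5, 41.3 and 42.9 CPM in mutants against 76.1, 73.1, 63.9 and 82.1 CPM in wild type, without overlap (-0.85, SE 0.13). Fdps, which makes farnesyl diphosphate, fell by 0.87 (SE 0.15), with mutant 2 the lowest of the mutants. Leaving out a library kept the count between 15 and 22. Of 20 fatty acid genes 7 fell (4 without mutant 2) and no gene rose, among them the desaturases Scd2 at 1046, 1147, 1069 and 1109 CPM against 1595, 1514, 1414 and 1673 CPM (-0.49, SE 0.07) and Scd1 (-0.76, SE 0.12). The sterol response core TCACNCCA stood in 3 of 18 cholesterol gene promoters (16.7%) and in 3.59% of tested genes.

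**Figure D3:**
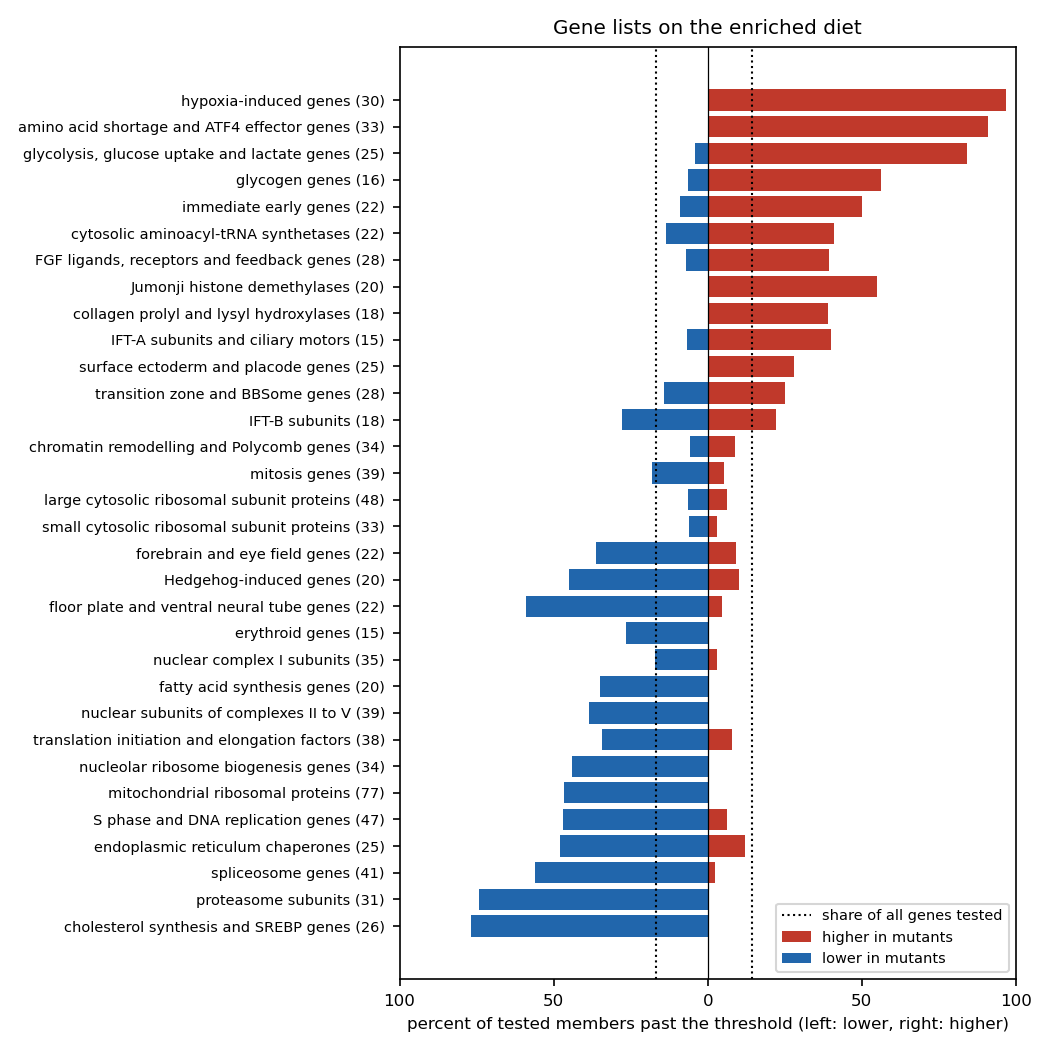
Bars give, for each gene list drawn, with its number of tested genes, the percent that fell (blue, left) and rose (red, right), and dotted lines mark the 16.8% and 14.4% of all genes tested. Hypoxia, amino acid and glycolysis genes reach furthest to the right, and cholesterol synthesis, proteasome, floor plate and spliceosome genes furthest to the left.

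Beneath these blocks lay many small falls in the machinery for making and removing RNA and protein. Of 31 proteasome subunits 23 fell and no gene rose, and all 31 estimates were below 0, at a median of -0.32. Psmc3, an ATPase of the cap, read 231, 198, 228 and 182 CPM in mutants and 320, 294, 330 and 261 CPM in wild type (-0.55, SE 0.10). Psmd13, a lid subunit, read 184, 157, 196 and 138 CPM against 263, 233, 264 and 201 CPM (-0.56, SE 0.11). Both were without overlap, although the highest mutant stood close to the lowest wild type library. The count was 15 without mutant 2, 12 without mutant 4, 14 without wild type 1 and 12 without wild type 3. Of 41 spliceosome genes 23 fell and 1 rose, at a median of -0.26. Srsf2, a splicing factor, read 582, 476, 716 and 582 CPM against 916, 815, 909 and 792 CPM (-0.58, SE 0.11), and Srsf1 fell by 0.46 (SE 0.09). The spliceosome count was 11 without mutant 2 and 13 without wild type 1 or wild type 3.

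Small falls were also frequent among mitochondrial ribosomal and nucleolar genes. Of 77 mitochondrial ribosomal proteins 36 fell and no gene rose, at a median of -0.28, and the count lay between 25 and 41 over the left-out libraries. Mrpl20 read 37.6, 26.6, 42.3 and 29.8 CPM in mutants and 64.3, 54.3, 59.8 and 47.5 CPM in wild type (-0.79, SE 0.14). Mrps11 fell by 0.70 (SE 0.10). Of 34 nucleolar ribosome biogenesis genes 15 fell, among them Bysl (-0.82, SE 0.13) and Bop1 (-0.75, SE 0.13), and the count was 9 without mutant 1, 8 without mutant 2 or wild type 1 and 7 without wild type 3. Nuclear subunits of respiratory complexes II to V gave 15 falls of 39, such as Atp5g1 of ATP synthase (-0.62, SE 0.15), but 5 without mutant 2 and 4 without mutant 4, wild type 1 or wild type 3. Complex I gave 6 falls and 1 rise of 35, near the 16.8% of all genes that fell, with 3 falls without mutant 2 and 2 without mutant 4, wild type 1 or wild type 3. Ndufv3, the rising subunit, read 92.1, 93.1, 80.8 and 77.8 CPM against 70.5, 48.8, 55.0 and 56.7 CPM (0.60, SE 0.12).

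The cytosolic ribosome itself showed no such pattern. Of 48 large subunit proteins 3 rose and 3 fell, and of 33 small subunit proteins 1 rose and 2 fell, below the 31.2% called overall. Rpl4 was the highest of those that rose, at 2937, 2693, 2578 and 2231 CPM against 2417, 2137, 2150 and 2029 CPM (0.25, SE 0.08), with overlap. Without mutant 1, mutant 2 or wild type 2 no large subunit protein rose, and without wild type 4 a single one did. Many ribosomal protein genes have near-identical processed copies in the genome, so their counts are uncertain. Of 38 translation factors 13 fell and 3 rose, with 7 falls without mutant 2 and 8 without mutant 4, wild type 1 or wild type 3. Eef2, the elongation factor that moves the ribosome along, rose from 4488, 4140, 4445 and 3946 CPM in wild type to 6763, 6875, 5936 and 5145 CPM (0.53, SE 0.11). It was the highest of all genes with a small rise. Eif4b rose by 0.56 (SE 0.09), and Eif2b2, a subunit of the exchange factor that resets initiation, fell by 0.57 (SE 0.10).

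Other small shifts at high levels ran in both directions. Nedd4, a ubiquitin ligase, read 2928, 3185, 3226 and 2911 CPM in mutants against 2493, 2841, 2448 and 2621 CPM in wild type (0.22, SE 0.06, adjusted p = 0.014). Grb10, an adaptor that limits insulin signals, rose by 0.26 (SE 0.06). Eif4g2 read 2345, 2125, 2664 and 2216 CPM against 2785, 3148, 2965 and 2590 CPM, and mutant 3 reached into the wild type range (-0.34, SE 0.07). Trim28, a corepressor of transposons, fell by 0.38 (SE 0.07) and Kpnb1, an importin, by 0.27 (SE 0.07). Eif5a fell by 0.47 (SE 0.12) and Hnrnpa2b1, an RNA binding protein, by 0.28 (SE 0.08). Eif4g1, at -0.23 (SE 0.08, adjusted p = 0.0488), sat at the edge of the threshold and missed it in 16 of 21 alternatives, each left-out library among them.

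Genes of DNA replication fell by similar amounts. Of 47 S phase genes 22 fell and 3 rose, at a median of -0.19. Fen1, the flap endonuclease, read 139, 119, 164 and 126 CPM in mutants and 211, 210, 217 and 185 CPM in wild type (-0.63, SE 0.10). Tyms, which makes thymidylate with a folate cofactor, read 85.7, 71.4, 90.7 and 74.0 CPM against 132, 121, 127 and 105 CPM (-0.64, SE 0.10). Neither gene overlapped between the groups. The number of falls was 14 without mutant 1 or wild type 1 and 12 without mutant 2 or wild type 3. Of 39 mitosis genes 7 fell and 2 rose, but no fall passed without mutant 2, wild type 1 or wild type 3, 1 passed without mutant 4 and 3 without mutant 1. The E2F site TTTGGCGC stood in 7 of 38 S phase promoters (18.4%) and in 0.992% of tested genes.

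Folate and one-carbon genes moved in both directions. Of 12 mitochondrial one-carbon and glycine cleavage genes 4 rose and 3 fell (58.3% called), at a median of -0.11. Aldh1l2, which oxidises formyl-tetrahydrofolate in the mitochondrion, read 24.1, 33.0, 17.9 and 31.9 CPM in mutants against 4.26, 2.81, 2.51 and 4.45 CPM in wild type (3.05, SE 0.37). Mthfd2 read 228, 214, 159 and 194 CPM against 98.2, 101.4, 104 and 87.3 CPM (1.03, SE 0.15), and Shmt2 and Mthfd1l rose by 0.75 (SE 0.11) and 0.68 (SE 0.09). Shmt2 and Mthfd2 are also on the list of ATF4 effectors. Genes of the mitochondrial glycine cleavage system were among the falls, with Gldc at -0.62 (SE 0.11) and Gcsh at -0.58 (SE 0.12). In the cytosol, no gene of 16 rose and 4 fell, though 2 rose without mutant 1, 1 without mutant 3 and 3 without wild type 2. The 4 were 25% of the list, below the 31.2% called of all genes. Folr1, a folate receptor, read 1.86, 1.95, 2.54 and 1.69 CPM against 5.37, 4.34, 7.71 and 3.42 CPM (-1.45, SE 0.28).

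Enzymes that set or remove DNA methylation moved in both directions, 3 up and 2 down of 13 (1 down without mutant 2, 3 or 4 or wild type 1 or 3). These were 38.5% of the list, against 31.2% called of all genes. Tet1, which oxidises methylcytosine, read 106, 130, 102 and 128 CPM in mutants and 48.4, 62.6, 44.9 and 65.1 CPM in wild type, without overlap (1.09, SE 0.18). Tet2 rose by 1.26 (SE 0.35), with wild type 4 reaching into the mutant range. Dnmt3b, a de novo methyltransferase, fell by 0.56 (SE 0.12), with mutant 3 at 106 CPM inside the wild type range of 91.0 to 124 CPM. Mat2a, which makes the methyl donor, read 154, 119, 306 and 269 CPM against 378, 362, 347 and 366 CPM, so mutants 1 and 2 fell furthest (-0.81, SE 0.24). Of 29 imprinted genes 4 rose and 4 fell (2 each without wild type 3), or 27.6% called against 31.2% of all genes. Among them was the noncoding Peg13, down by 0.69 (SE 0.08).

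Patterning of the head showed losses in the forebrain. Of 22 forebrain and eye field genes 8 fell and 2 rose, at a median of -0.43. Emx2, a homeobox factor of the cortical field, read 9.02, 9.0, 11.6 and 13.7 CPM in mutants and 26.2, 25.0, 24.3 and 24.6 CPM in wild type (-1.19, SE 0.12). Lhx2, needed for cortex and eye, read 23.5, 30.2, 62.0 and 40.8 CPM against 101.4, 90.1, 100 and 93.5 CPM (-1.33, SE 0.22). Nkx2-1, the marker of the ventral forebrain, read 0.906, 1.90, 4.19 and 5.83 CPM against 17.2, 15.2, 19.1 and 18.3 CPM (-2.43, SE 0.36). For these 3 genes mutants 3 and 4 kept more than mutants 1 and 2, and no mutant reached the wild type range. In every mutant the general neural markers Sox2 and Otx2 stood at 233.4 and 154.6 CPM or more. Their wild type ranges were 216 to 234 and 143 to 161 CPM. Sox2 passed as a rise, but missed the threshold in 6 of 21 alternatives. Sox1 read 71.7 to 110 CPM in mutants against 107 to 120 CPM, with mutants 1 and 2 below wild type. Pax6 (83.4 to 116 against 91.7 to 101 CPM) and Nes (280 to 354 against 314 to 361 CPM) overlapped, with the lowest value in mutant 1. Sox3 fell by 0.66 (SE 0.14).

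Several secreted signals and their inhibitors were higher. Fgf8, the growth factor of the anterior neural ridge and the midbrain-hindbrain boundary, read 34.7, 27.4, 27.5 and 25.5 CPM in mutants and 19.1, 17.0, 16.6 and 17.6 CPM in wild type (0.72, SE 0.14). Fgf15 read 98.1, 60.6, 81.0 and 77.8 CPM against 41.6, 36.1, 42.7 and 43.0 CPM (0.95, SE 0.18). Every mutant was above every wild type library for both. Of 28 FGF ligands, receptors and feedback genes 11 rose and 2 fell, at a median of 0.30, and Etv4, a transcriptional readout of FGF signals, rose by 0.58 (SE 0.14). Of 30 BMP and TGF-beta genes 7 rose and 4 fell (1 without mutant 2, wild type 1 or wild type 3), or 36.7% called against 31.2% of all genes. Among the rises were the inhibitors Smad7 (0.93, SE 0.17), Smad6 (0.68, SE 0.14) and Nog (0.91, SE 0.19). Among 40 Wnt genes 8 rose (4 without mutant 2) and 5 fell, or 32.5% called, near the share of all genes. The antagonists Sfrp2 (0.49, SE 0.10) and Sfrp1 (-0.64, SE 0.11) were among them. Wnt7b read 32.6, 26.1, 32.8 and 27.6 CPM against 70.6, 56.8, 66.7 and 55.8 CPM (-1.08, SE 0.13).

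Other tissues of the head moved less. Of 25 surface ectoderm and placode genes 7 rose (3 without wild type 1 and 4 without wild type 3) and no gene fell, or 28% called against 31.2% of all genes. Krt19 read 21.8, 24.0, 17.8 and 16.6 CPM in mutants against 12.7, 10.98, 8.47 and 9.06 CPM in wild type (0.93, SE 0.16). The placode factor Dlx3 rose by 0.89 (SE 0.17). Yet 10 of the 25 estimates were below 0. The markers Krt8 (26.0 to 36.7 against 28.0 to 39.2 CPM) and Krt18 (37.1 to 50.2 against 32.1 to 53.9 CPM) overlapped between the groups, as did Trp63 and Epcam. Neural crest genes gave 2 rises and 2 falls of 23, below the share of all genes. Snai2, a crest emigration factor, rose by 0.81 (SE 0.18). Of 20 planar cell polarity genes 3 rose, Celsr1, Vangl2 and Fzd3, by 0.24 to 0.27, and none passed when only the 8 enriched diet libraries were fitted or without mutant 2. The count was 1 without mutant 4 or wild type 3 and 5 without wild type 4. None of 5 tested Hox genes passed.

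Smaller groups of signalling and stress genes were mixed. Of 22 immediate early genes 11 rose and 2 fell, at a median of 0.46. Fosl2, an AP-1 subunit, read 14.8, 18.3, 12.5 and 13.2 CPM in mutants and 5.37, 4.99, 5.84 and 5.49 CPM in wild type, without overlap (1.48, SE 0.19). Of 20 Notch genes 4 rose and 3 fell, or 7 and 5 without mutant 4. The called share over all libraries, 35%, was near the 31.2% of all genes. The ligand Jag2 read 23.5, 32.3, 23.6 and 33.4 CPM against 11.5, 12.6, 13.7 and 18.2 CPM (1.07, SE 0.21), and the target Heyl fell by 1.30 (SE 0.24). Of 19 retinoic acid genes 4 rose (2 without mutant 2 or 4) and 6 fell, with the synthetic enzyme Aldh1a3 up by 0.63 (SE 0.11) and the binding protein Crabp2 down by 0.45 (SE 0.10). Of 29 autophagy and lysosome genes 7 rose and 6 fell (3 without mutant 1).

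The other subunits of the transport complexes did not follow Ift88. Of 18 IFT-B subunits, Ift88 included, 5 fell (3 without mutant 2, 3 or 4 or wild type 1 or 3) and 4 rose. Ift20 read 14.6, 12.7, 17.0 and 16.9 CPM in mutants and 26.6, 23.8, 24.6 and 20.6 CPM in wild type (-0.65, SE 0.13). Ift172 read 55.4, 61.1, 52.1 and 71.5 CPM against 39.3, 45.3, 36.9 and 47.9 CPM (0.52, SE 0.11). Both were without overlap and in opposite directions. Of 15 IFT-A subunits and ciliary motors 6 rose and 1 fell (none without any of 7 libraries, all but mutant 4), with the retrograde subunit Wdr19 up by 0.54 (SE 0.11). Arl13b, the GTPase of the ciliary membrane, rose by 0.49 (SE 0.08). Foxj1, which drives motile cilia and marks node and floor plate, read 1.495, 1.60, 1.11 and 2.101 CPM against 4.17, 3.86, 5.23 and 4.42 CPM (-1.42, SE 0.23).

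Markers of blood and vessels moved in part. All 15 tested erythroid genes had estimates below 0, at a median of -0.80, and 4 passed (7 without mutant 2 and 2 without mutant 4). These were 26.7% of the list, against 31.2% called of all genes. Klf1, the erythroid master factor, read 2.76, 2.86, 2.44 and 0.983 CPM in mutants and 7.24, 6.79, 11.1 and 3.6 CPM in wild type (-1.79, SE 0.48). Embryonic globin Hbb-y ranged from 263 to 1416 CPM in mutants and from 473 to 1131 CPM in wild type, and the groups overlapped. Of 22 endothelial genes 7 fell and 3 rose (5 without mutant 3 or wild type 4). Cldn5, a tight junction protein of vessels, read 20.4, 13.2, 16.3 and 11.4 CPM against 36.2, 23.6, 31.9 and 32.4 CPM (-1.03, SE 0.18), Etv2, the factor that starts the lineage, fell by 1.99 (SE 0.41), and Pecam1 rose by 0.59 (SE 0.13). How far the number of vessel and blood cells took part in other results was not tested.

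Some genes known from tissue outside the head were uneven between libraries, such as Prl8a2 and Afp, while Ascl2 and Prl3b1 differed by genotype in all of them. Of 10 tested genes of decidua and trophoblast 2 rose, Prl8a2 and Ascl2, and 2 fell, Prl3b1 and Plac1. These were 40% of the list, against 31.2% called of all genes. Ascl2, a bHLH factor of trophoblast, read 3.85, 4.63, 2.17 and 3.12 CPM in mutants against 0.383, 0.322, 0.351 and 0.305 CPM in wild type, without overlap (3.35, SE 0.61). Prl3b1, a placental lactogen, read 0.113, 0.0865, 0.371 and 0.102 CPM against 1.63, 1.61, 1.58 and 0.915 CPM, also without overlap (-3.29, SE 0.48), and Plac1 fell by 0.86 (SE 0.25). Prl8a2 passed the test with a fitted change of 7.04 (SE 2.08, adjusted p = 0.0183) on values of 0.204, 0.519, 189 and 3.46 CPM in mutants and 0.0610 to 0.201 CPM in wild type. Mutant 1 stood barely above wild type 2, and without mutant 3 the gene did not reach the count minimum. With limma-voom it missed the threshold. Of 15 tested visceral endoderm genes 1 fell and no gene rose, but 7 fell without mutant 4. That library held the most Afp, Apoa1 (9.39 CPM) and Ttr (6.13 CPM). Wild type 2 came next for each, with Afp at 5.51, Apoa1 at 3.38 and Ttr at 4.18 CPM. Of 15 cardiomyocyte genes 3 rose and 1 fell, or 26.7% called, below the share of all genes. Gata4, a factor of heart and endoderm, read 0.521, 2.94, 1.11 and 1.76 CPM against 0.144, 0.322, 0.263 and 0.183 CPM (2.83, SE 0.51), while the defining heart markers Nkx2-5 and Tnnt2 reached at most 0.317 CPM. Whether these reads came from tissue carried over or from the head itself was not tested, nor was their part in other results.

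Called genes were spread over the genome but not evenly over gene length. The share called ran from 26.8% on chromosome X to 35.2% on chromosome 11, and was 29.4% on chromosome 14, which carries Ift88. Of 4 equal classes by transcript length, in the shortest (64 to 2216 bases) 9.09% rose and 22.8% fell. In the longest (4850 to 123179 bases) 20.1% rose and 8.45% fell. By GC content the lowest of 4 classes gave 16.6% rises and 10.9% falls and the highest 12.6% and 21.4%. Across the 14440 genes with a length, which are not independent replicates, the log2 fold change correlated with log length at r = 0.12. Within libraries the same correlation of a gene's deviation from its mean ran from -0.08 to 0.36 in mutants and from -0.51 to 0.16 in wild type, so 2 wild type libraries, 1 and 3, stood apart. Removing a fitted trend on length and GC from each library left 5032 calls, of which 4069 were among the 4524 with the same direction. In that fit 27 of 31 proteasome subunits fell, and 9 large ribosomal subunit proteins rose in place of 3. Complex I gave 4 rises and 7 falls there, at a median of -0.05 in place of -0.14. Among the other lists described above, counts of more than 3 that it moved by over 1.5 times were those of fatty acid genes, with 11 falls in place of 7, and Wnt genes, with 5 rises in place of 8.

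On the moderate diet the same genotype contrast called 1106 genes (7.62%), 695 up (4.79%) and 411 down (2.83%). The libraries of the 2 contrasts are separate, though 1 fit gave both. Of the genes called on the enriched diet 938, or 20.7%, were also called on the moderate diet, all in the same direction, and these were 84.8% of the moderate diet calls. Of all 4524 enriched diet calls 93.8% had the same sign on the moderate diet, and so did 92.3% of those under 1.5-fold. The median ratio of the moderate to the enriched estimate was 0.48. Since the genes were chosen by their enriched diet values, a ratio under 1 is partly fixed by that choice. Standard errors were alike, at a median of 0.120 on the enriched and 0.118 on the moderate diet.

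**Figure D4:**
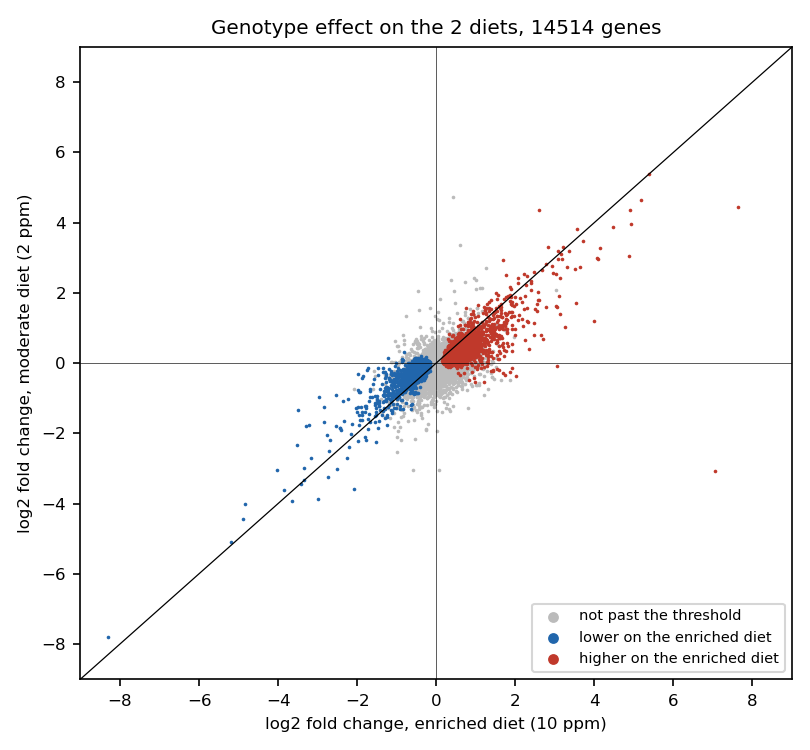
Each point is a gene, with its log2 fold change on the enriched diet (horizontal) and on the moderate diet (vertical), and the diagonal marks equal values. Large changes such as Nkx2-9 (-8.30 and -7.81) lie near the diagonal, most small enriched diet calls lie between it and the horizontal axis, and Prl8a2 (7.04 and -3.07) lies far off it.

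The hypoxia genes were close in size on both diets, with 29 of 30 higher on each, at medians of 1.83 and 1.89. Of 33 amino acid response genes 30 rose on the enriched and 25 on the moderate diet, at medians of 1.54 and 1.02. Adm was 5.37 higher in mutants on both. The small falls differed in count: of the 31 proteasome subunits 23 fell on the enriched and no gene on the moderate diet (medians -0.32 and -0.06), of 77 mitochondrial ribosomal proteins 36 and 0 (-0.28 and -0.02), of 41 spliceosome genes 23 and 0 (-0.26 and -0.05), and of 26 cholesterol genes 20 and 1 (-0.45 and -0.15). A gene past the threshold on 1 diet only is not shown to differ between them. In the test of the difference itself (edgeR interaction contrast) no gene passed, or 0%, with 1401 (9.65%) at an unadjusted p under 0.05, and none passed with DESeq2 or limma-voom either. The smallest p belonged to Runx1, a blood and crest factor, at 0.43 on the enriched and -1.23 on the moderate diet (unadjusted p = 0.000301, adjusted p = 0.501). Optn, an autophagy receptor, followed with 1.14 and -0.15.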

How the data were processed

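RNA was measured in 16 libraries in 4 groups of 4, made with a TruSeq kit that keeps no strand, per the labels' protocols. The deposited values are raw counts per gene symbol. The submitters' processing notes name FastQC 0.11.5, TopHat2 2.1.1, SAMtools 1.8, HTSeq 0.9.1, DESeq2 1.22.2 and mm10. The sources used here name no annotation or counting options, so overlapping and antisense genes cannot be told apart.

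The 5 summary lines of each table were left out of library sizes. Genes that reached 10 counts in 4 or more libraries, 14514 of 24421 (59.4%), were fitted with edgeR 4.0.16 (quasi-likelihood, TMM scaling) in R 4.3.3 over all 16 libraries, with a term per group and labelled sex. Labelled sex was kept although some moderate diet labels do not match the sex-linked counts, as given above. Without the sex term there were 4087 calls, 1925 up and 2162 down, of which 3977 were among the 4524 with the same direction. Adjusted p-values are Benjamini-Hochberg over all genes tested, with a threshold of 0.05. Log2 fold changes are mutant against wild type and SE is their standard error. The fit was tested on simulated data.

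Named genes were Ift88, the 15 largest rises and falls without overlap at a mean of 1 CPM or more, the 10 smallest p, the 6 highest small shifts in each direction, up to 6 members of each list by p, and the 5 smallest p for the diet difference. Sex-linked and predicted genes were passed over, and a few named genes are not reported here. The comparison and the gene lists were chosen with earlier results of these data known. Lengths and GC came from GENCODE vM21 and RefSeq on the same build for 14440 tested genes, and promoters from RefSeq for 10893. Alternatives covered scaling, DESeq2 1.42.0, limma 3.58.1 (voom), filters, covariates, thresholds and each left-out library.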

Additional observations from a re-analysis of the deposited data

Results flagged for a closer look

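In 92 groups of 4 values (46 genes in each genotype) and in the library measures, 5 held a library far from the other 3, by a gap over the group's range above Dixon's 95% critical value. Chance gives about 1 in 20 such groups. Mutant 3 was the low library among mutants for Chac1 (0.896), Bhlhe40 (0.878) and Nrn1, a neurite growth protein (0.9), on the log2 scale. Mutant 4 was the low library among mutants for the share of counts in the 10 largest genes (0.908). Wild type 4 was the low library among wild type for Aldh1a1 (0.957). In these 4 genes the mutants and wild type libraries did not overlap, which the rule that named the largest changes required.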

How the results depend on the processing

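Of 364 named genes past the threshold, 271 kept their call and direction in all 21 alternatives and 93 missed the threshold in at least 1. At an adjusted p of 0.01 there were 2259 calls, 1053 up and 1206 down, with 529 past 1.2-fold, 133 past 1.5-fold and 418 on the moderate diet, which had 1906 at 0.1. limma-voom gave 676 genes past 1.2-fold and 122 past 1.5-fold. The 8 enriched diet libraries alone gave 1592 rises and 1612 falls. Leaving out each enriched diet library in turn gave 3023 to 4572 calls, 1620 to 2379 rises, 1403 to 2452 falls, 740 to 1514 genes past 1.2-fold, 159 to 249 past 1.5-fold and 1008 to 1403 on the moderate diet. The share of calls that were rises ran from 44.9% to 54.1% over the alternatives. Fzd3 turned to -0.034 on the log2 scale with the trend on length and GC removed. Afp, Cubn and Apoa1, not called over all libraries, ran from -3.82 to 4.03, from -1.13 to 1.53 and from -3.27 to 2.00 over the left-out libraries, with each lowest value without mutant 4, where all 3 passed the threshold as falls. Afp was also at -1.39 with limma-voom and -0.44 with the replicate block, and Apoa1 at -1.35 and -0.67, past the threshold in neither. The cause was not tested for any of these.

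Deviations of mutant and wild type libraries with the same replicate number correlated at 0.12, -0.29, 0.03 and 0.51. Wild type 4 was the closest match of mutant 4, while for the other mutants a different number was closest. Mutant 4 and wild type 4 also had the highest shares of reads on no feature among the enriched diet libraries, 17.0% and 16.8%. Whether libraries of the same number shared a step of processing was not tested. With the number as a replicate block there were 5303 calls on the enriched diet and 1701 on the moderate diet. Depth limits low genes most: the smallest called change was 1.25-fold in the lowest of 4 classes by level and 1.11-fold in the highest.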
